A study of Mus musculus with 6 samples.

Results

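The genes described here are 10 components of cardiac calcium cycling and excitation-contraction coupling, chosen by symbol: Cacna1c, Cacnb2, Ryr2, Jph2, Casq2, Hrc, Atp2a2, Pln, Slc8a1 and Camk2d. They were 10 of the 11284 genes measured above background. Their RNA was measured in hearts of adult mice with a knockout of Kdm4a (Jmjd2a), a histone demethylase, and in wild-type hearts, on 6 single-colour Illumina bead arrays. The heart-specific Jmjd2a knockout was represented by 1 female and 1 male heart and the general Jmjd2a knockout by 1 heart of unstated sex, and each of these 3 knockouts had 1 wild-type heart named in its title as its control, matched by sex in the heart-specific line. Sex and line aside, the labels describe the wild types no further: the allele design, the Cre driver of the heart-specific line, whether its wild types carried a floxed allele, the genetic background and any pooling of animals are not stated in what was used here. The heart-specific hearts of each genotype differed in sex and so came from different animals, and each general genotype had 1 array. The spread between animals of the same genotype, line and sex was therefore not measured, and technical variation is part of every difference.

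In a heart muscle cell the action potential opens L-type calcium channels in the surface membrane, and the calcium that enters makes ryanodine receptors release a much larger amount from the sarcoplasmic reticulum, the internal calcium store. Contraction ends when the SERCA pump returns calcium to the store, under restraint by phospholamban, and the sodium-calcium exchanger expels the rest from the cell. The kinase CaMKII, which calcium itself activates through calmodulin, phosphorylates channels, ryanodine receptors and phospholamban and so tunes every step of the cycle.

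The arrays carried 41 probes for the 10 genes. A probe was kept if it lay above the background level, the 95th percentile of 1523 probes for olfactory and related receptors (121 to 124 intensity units), on at least 2 of 6 arrays. Of the 41 probes, 30 were kept and 11 were not. The brightest kept probe stood for each gene, and all 10 of these probes lay above background on all 6 arrays. All 9 measured markers of ventricular muscle were above background on every array. The targeted transcript gave no check of the labels, because its 3 probes were at or near background throughout, and where they lie relative to the deletion is not given here. Differences are log2 knockout minus wild type, and a lower signal in bulk heart tissue cannot tell fewer muscle cells from less RNA per cell.

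Camk2d was the single gene of the 10 in which all 3 knockout hearts had a higher signal than all 3 wild-type hearts. That pattern was found in 3.14% of all genes, and separation in either direction in 6.19%, so 1 of 10 is close to the background. In each of the other 9 the knockout and wild-type signals overlapped. Over the 3 pairs limma called 0 of the 10 genes at an adjusted p of 0.05, and it called 0 of 11284 genes overall (0.0%). At an unadjusted p under 0.05 it found 1 of the 10, Camk2d, against 303 of all genes (2.69%). In the heart-specific comparison it likewise called 0 of 10 and 0 of 11284 genes (0.0%), with 1 of the 10 against 505 of all genes (4.48%) at an unadjusted p under 0.05, again Camk2d. The 10 genes had a median difference of -0.02 over the 3 pairs and of -0.06 in the heart-specific comparison, and all genes had a median of 0.0 in both. The same sign in all 3 pairs was found for 2 of the 10 genes, Camk2d and Ryr2, against 21.8% of all genes, a share close to the background.

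**Figure D1:**
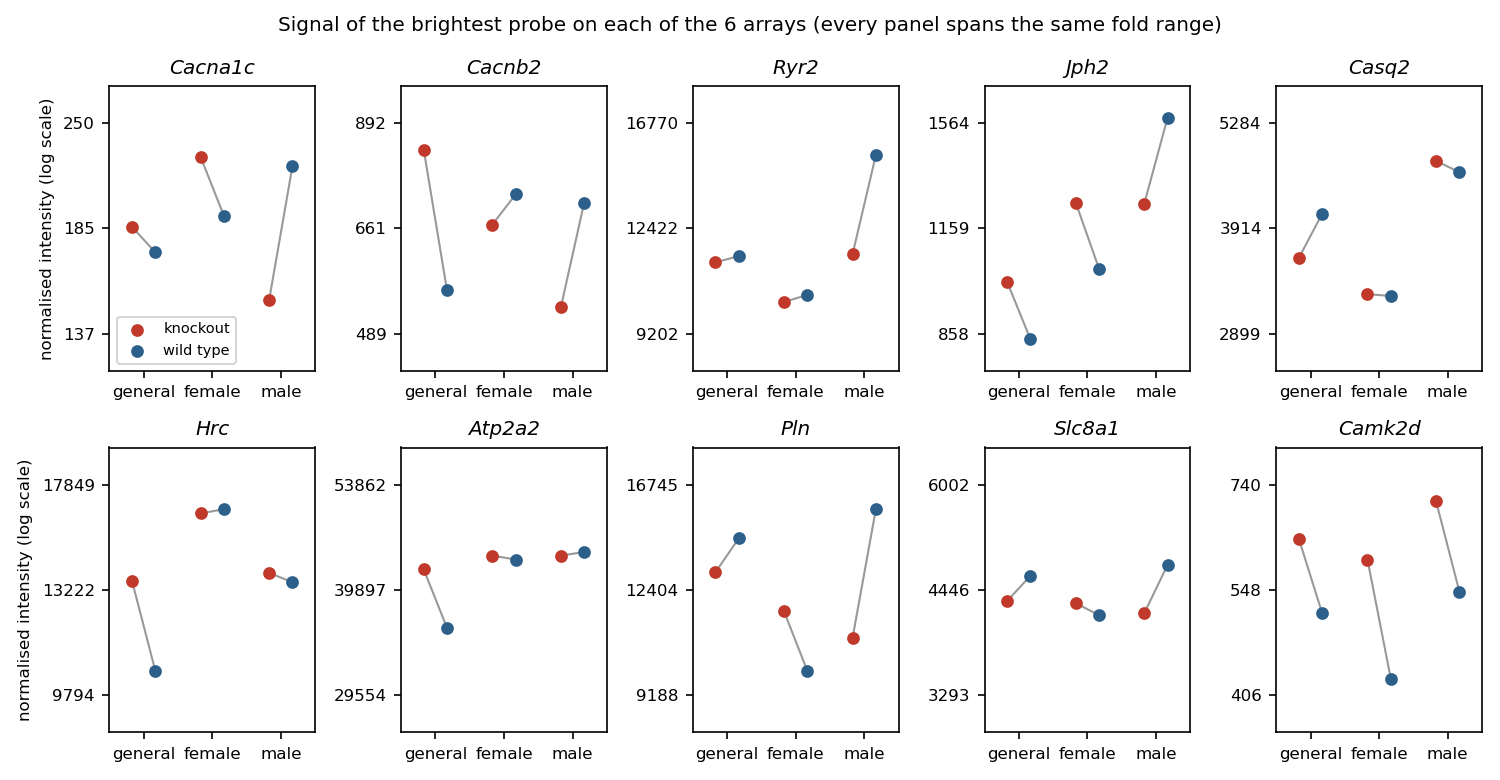
Normalised intensity (log scale) of the brightest probe of each gene on the 6 arrays, with the knockout left of its wild type in the general, female and male pair, and a line joining each pair. Knockout points lie above their wild types in every pair for Camk2d alone, and the male wild type is the highest array for Pln, Ryr2, Slc8a1, Jph2 and Atp2a2.

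The regulator of the cycle, Camk2d, encodes the delta form of CaMKII, the main form in heart muscle. Its brightest probe read 634 in the general knockout against 513 in its wild type, 598 in the female knockout against 426, and 706 in the male knockout against 546. The knockouts spanned 598 to 706 and the wild types 426 to 546, so the groups did not overlap, a pattern seen in this direction in 3.14% of all genes, in the opposite direction in 3.06% (0 of the 10) and in either in 6.19% (1 of the 10). The differences were 0.31, 0.49 and 0.37 in the general, female and male pair, with a mean of 0.39 ± 0.09 (SD, n = 3 pairs), a 1.31-fold higher signal. With limma the standard error was 0.10, the unadjusted p was 0.00639 and the adjusted p was 0.9998. An exact two-sided permutation test of 3 against 3 arrays, which ignores the pairs, gave p = 0.1. That is the smallest it can give, and every gene without overlap reaches it, so it adds nothing to the lack of overlap. Exact sign flips of the 3 pairs gave p = 0.25, again the smallest possible. In the heart-specific pairs alone the mean was 0.43 ± 0.08 (SD, n = 2 pairs; limma adjusted p = 0.976). Of 7 red blood cell markers 4 were measured, and 1 of the 4, Hba-a1, was higher in every knockout, like Camk2d. Hba-a1 read 42292 to 44903 in the knockouts and 31905 to 40528 in the wild types. It made up most of the summed level of the 4, which was 44186 to 48740 in the knockouts and 35503 to 42437 in the wild types. The other 3 were lower in the general knockout. All 4 were higher in the female knockout and 3 of the 4 in the male knockout, where Hbb-b2 was lower (193 against 979). Markers of other tissues were also higher in every knockout: Egfl7 (endothelial, by 0.13, 0.21 and 0.57), Dbh (neuron, by 0.12, 0.33 and 0.39) and Mylpf (skeletal muscle, by 0.25, 0.06 and 0.44). Pvalb (skeletal muscle), Tagln (smooth muscle) and Lum (fibroblast) were lower in every knockout. Mylpf, Pvalb and Tagln were near background. The part of any of these markers in the Camk2d difference was not tested.

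Most other probes of Camk2d did not share this pattern. The gene had 11 probes, of which 8 were kept, and the remaining 7 kept probes had mean differences between -0.07 and 0.20. All 7 were higher in the female knockout, but only 3 of 7 were higher in the general and 3 of 7 in the male knockout. The second brightest probe read 390 against 422 in the general pair, 404 against 296 in the female pair and 458 against 505 in the male pair, differences of -0.12, 0.45 and -0.14. One further probe, the sixth brightest, was higher in every knockout, by 0.06, 0.19 and 0.31. The mean over the 8 kept probes gave 0.11 over the 3 pairs, less than the 0.39 of the brightest probe, and 0.04 in the general pair, against 0.31. Camk2d has several transcript forms, and the sources used here do not say which of them each probe reads.

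**Figure D2:**
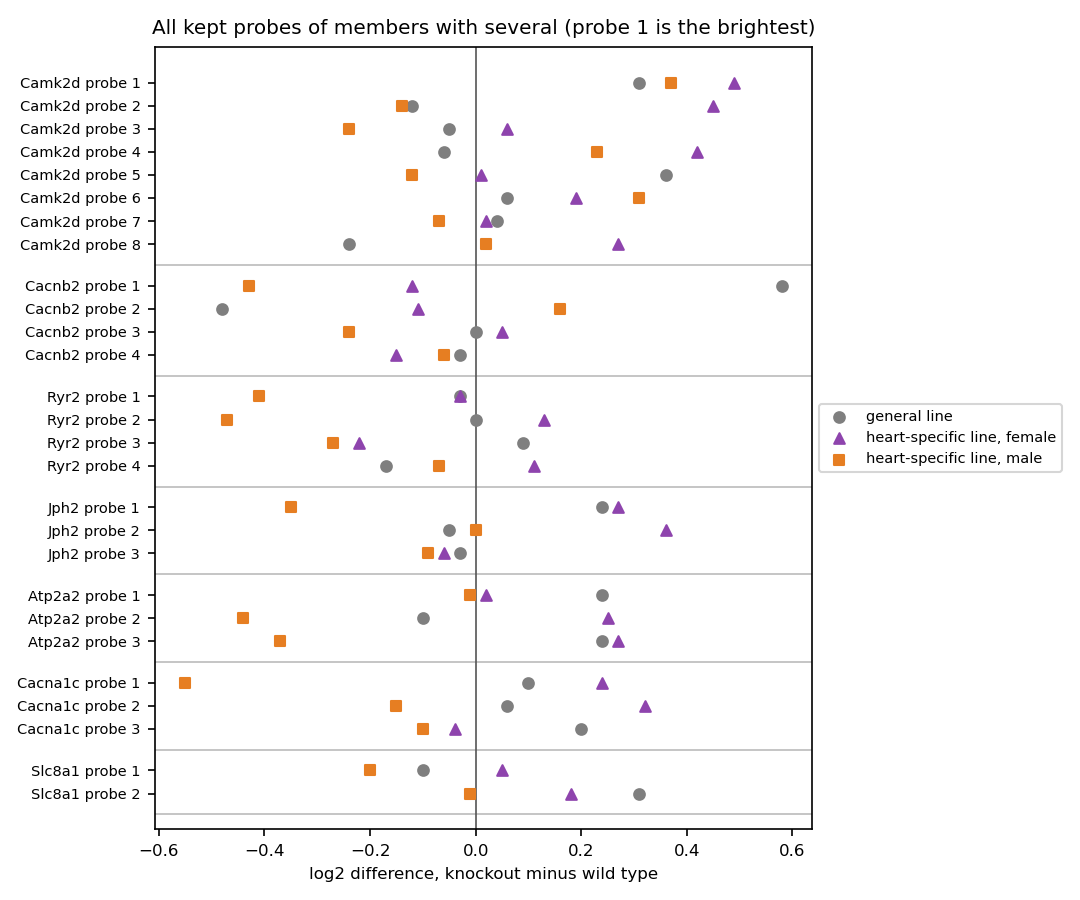
Log2 difference, knockout minus wild type, for every kept probe of the 7 genes with more than 1 kept probe, in the general pair (circles), the female pair (triangles) and the male pair (squares), with probes numbered from the brightest. All 3 pairs lie above 0 for Camk2d probes 1 and 6 and for no other probe shown.

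The promoter of Camk2d is shown because this was the gene of the 10 with separate knockout and wild-type signals by brightest probe (6.19% of all genes). Those of Pln and Casq2 are shown beside it. The Pln differences had opposite signs in the female and the male pair, as in 6 of the 10 genes (49.5% of all genes). The Casq2 signals did not overlap between the sexes, as in 3 of the 10 genes (42.7% of all genes). Neither trait is particular to its gene, and sex cannot be told apart from the individual hearts. Each window runs from 250 bases before to 50 bases after the annotated start on the plus strand (RefSeq, GRCm38.p6). Capitals mark matches on either strand to the MEF2 consensus, the CArG box (both by their usual consensus), the TATA box TATAAA, the CCAAT box, the Sp motif GGGCGG and the E-box CAGCTG, and no matches in these windows overlap.
Camk2d, chr3:126596701-126597000: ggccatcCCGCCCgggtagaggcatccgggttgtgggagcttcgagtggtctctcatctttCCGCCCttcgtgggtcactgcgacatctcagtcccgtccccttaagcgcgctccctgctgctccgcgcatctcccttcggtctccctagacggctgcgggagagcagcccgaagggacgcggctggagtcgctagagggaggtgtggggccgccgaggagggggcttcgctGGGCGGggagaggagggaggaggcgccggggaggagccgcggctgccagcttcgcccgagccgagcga
Pln, chr10:53337436-53337735: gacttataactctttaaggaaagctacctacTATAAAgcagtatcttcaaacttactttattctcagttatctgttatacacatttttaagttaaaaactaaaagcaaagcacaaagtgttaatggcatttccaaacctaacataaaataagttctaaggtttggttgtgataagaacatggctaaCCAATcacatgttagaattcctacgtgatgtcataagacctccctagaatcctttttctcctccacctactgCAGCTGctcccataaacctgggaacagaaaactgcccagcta
Casq2, chr3:102086165-102086464: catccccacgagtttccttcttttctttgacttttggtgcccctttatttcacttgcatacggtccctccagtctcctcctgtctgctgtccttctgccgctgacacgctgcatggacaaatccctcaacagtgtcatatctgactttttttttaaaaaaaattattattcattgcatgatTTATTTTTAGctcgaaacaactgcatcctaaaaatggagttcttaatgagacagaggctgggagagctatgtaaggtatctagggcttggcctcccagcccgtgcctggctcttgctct
The Camk2d window held 3 matches to the Sp motif, beginning at positions -243 and -189 (minus strand) and -18 (plus strand) from the start. Such a match was present in 35.7% of 32851 promoter windows of the genome. The Pln window held TATAAA at position -219 (13.6% of windows), CCAAT at position -64 (37.4%) and the E-box CAGCTG at position 9 (16.3%). The Casq2 window held a MEF2 match, the motif of a muscle transcription factor family, at position -69, which 3.19% of windows contain. No CArG box was found in the 13 windows of the 9 genes of the set that had one (1.63% of all windows). A match is a description of letters in the window and not evidence of binding.

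Calcium entry was read from the pore-forming L-type channel gene Cacna1c and its auxiliary subunit gene Cacnb2. Cacna1c was the dimmest of the brightest probes, at 186 in the general knockout against 173 in its wild type, 227 in the female knockout against 192 and 151 in the male knockout against 221. The groups overlapped, with both the highest and the lowest of the 6 values in heart-specific knockouts. The mean difference was -0.07 ± 0.42 (SD, n = 3 pairs; limma adjusted p = 0.9998). These signals lie close to background, which compresses fold changes, and the other 2 kept probes were dimmer still, with means of 0.07 and 0.02.

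Cacnb2 read 827 in the general knockout against 554 in its wild type, 668 in the female knockout against 728 and 528 in the male knockout against 711. It was thus higher in the general knockout and lower in both heart-specific knockouts, with differences of 0.58, -0.12 and -0.43. The probes disagreed here too. The second brightest Cacnb2 probe read 338 against 470 in the general pair, 335 against 362 in the female pair and 338 against 302 in the male pair, and so had the opposite sign in the general (-0.48) and the male pair (0.16). Over the 3 pairs the brightest probe averaged 0.01 ± 0.52 (SD, n = 3 pairs; limma adjusted p = 0.9998).

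Calcium release was read from Ryr2, the cardiac ryanodine receptor gene, and Jph2, which encodes junctophilin, the tether that holds the store membrane against the surface membrane. Ryr2 read 11280 in the general knockout against 11482 in its wild type, 10078 in the female knockout against 10283 and 11551 in the male knockout against 15312. Knockout and wild-type hearts were nearly level in the general and the female pair (-0.03 in both), and the difference of -0.41 in the male pair came with the highest of all 6 signals in the male wild type. The mean was -0.15 ± 0.22 (SD, n = 3 pairs; limma adjusted p = 0.9998). All 4 kept Ryr2 probes were lower in the male knockout, with differences of -0.41, -0.47, -0.27 and -0.07. All but the brightest were dim, at 108 to 359, and the last was above background on only 2 arrays.

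Jph2 read 995 in the general knockout against 845 in its wild type, 1247 in the female knockout against 1033 and 1244 in the male knockout against 1589. The knockouts spanned 995 to 1247, inside the wild-type span of 845 to 1589. The differences of 0.24, 0.27 and -0.35 averaged 0.05 ± 0.35 (SD, n = 3 pairs; limma adjusted p = 0.9998). The other 2 kept Jph2 probes were dim, at 141 to 186.

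The store itself was read from Casq2, the cardiac calsequestrin gene, whose protein buffers calcium inside the sarcoplasmic reticulum, and from Hrc, the gene of the histidine-rich calcium-binding protein of the same compartment. Casq2 read 3600 in the general knockout against 4082 in its wild type, 3247 in the female knockout against 3229 and 4744 in the male knockout against 4593. Both heart-specific knockouts lay within 0.05 of their wild types on the log2 scale, and the mean over the 3 pairs was -0.04 ± 0.12 (SD, n = 3 pairs; limma adjusted p = 0.9998). Hrc read 13575 in the general knockout against 10506 in its wild type, 16438 in the female knockout against 16639 and 13878 in the male knockout against 13517. It too was nearly level in the heart-specific pairs (-0.02 and 0.04), and its difference of 0.37 in the general pair came with the lowest of all 6 signals in the general wild type. Casq2 and Hrc had 1 probe each.

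Uptake was read from Atp2a2, the gene of the cardiac SERCA pump, and Pln, the gene of its inhibitor phospholamban. The brightest Atp2a2 probe read 42292 in the general knockout against 35812 in its wild type, 43993 in the female knockout against 43509 and 43993 in the male knockout against 44449. These values reach 87.2% of the brightest probe of the arrays, where a ceiling can compress differences. The next brightest probe read 27403 against 29408 in the general pair, 28429 against 23874 in the female pair and 27111 against 36820 in the male pair. That probe differed by -0.10, 0.25 and -0.44, while the brightest differed by 0.24, 0.02 and -0.01, so the direction in the general pair depends on the probe. The third kept probe, far below the brightest at 1521 to 2539, differed by 0.24, 0.27 and -0.37, with the sign of the brightest probe in the general pair and a size near that of the next brightest in the female and the male pair. The mean was 0.08 ± 0.14 with the brightest and -0.10 ± 0.35 with the next brightest probe (SD, n = 3 pairs; limma adjusted p = 0.9998 for both).

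Pln had 1 probe, which read 13044 in the general knockout against 14365 in its wild type, 11672 in the female knockout against 9853 and 10827 in the male knockout against 15615. The knockouts, at 10827 to 13044, lay inside the wild-type span of 9853 to 15615. The differences of -0.14, 0.24 and -0.53 averaged -0.14 ± 0.39 (SD, n = 3 pairs; limma adjusted p = 0.9998).

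Removal of calcium from the cell was read from Slc8a1, the gene of the cardiac sodium-calcium exchanger. It read 4309 in the general knockout against 4630 in its wild type, 4282 in the female knockout against 4138 and 4163 in the male knockout against 4777. Its 6 signals spanned 0.21 on the log2 scale, the smallest span of the 10 genes, and the differences of -0.10, 0.05 and -0.20 averaged -0.08 ± 0.13 (SD, n = 3 pairs; limma adjusted p = 0.9998). A second kept Slc8a1 probe was dim (108 to 165, above background on 4 arrays) and differed by 0.31, 0.18 and -0.01. The mean of both probes turned the direction, to 0.04 over the 3 pairs and 0.10 in the general pair.

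**Figure D3:**
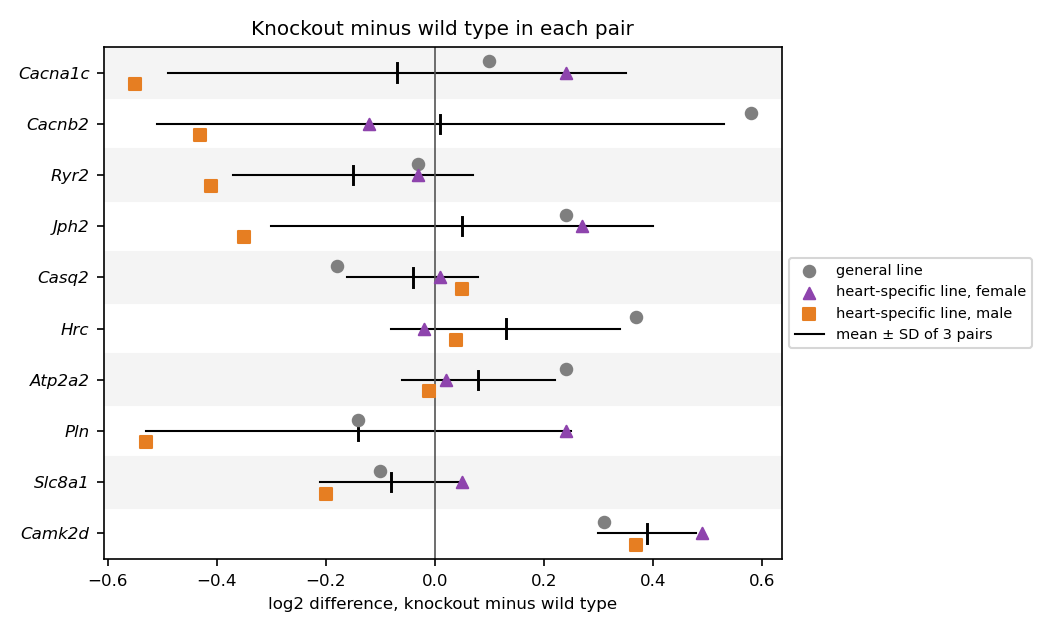
Log2 difference, knockout minus wild type, of the brightest probe of each gene in the general pair (circles), the female pair (triangles) and the male pair (squares), with the mean and SD of the 3 pairs in black. The male pair lies at -0.35 or below for Cacna1c, Cacnb2, Ryr2, Jph2 and Pln, and the 3 points of Camk2d lie together between 0.31 and 0.49.

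In the male knockout 7 of the 10 genes had a lower signal than in the male wild type (50.1% of all genes did), and 5 of the 10 differed by -0.3 or below (10.3% of all genes). Their median there was -0.28 against 0.0 for all genes. In the general knockout 5 of the 10 were higher by 0.2 or more (18.7% of all genes), and in the female knockout 4 of the 10 (13.3%). By probe, 22 of the 30 kept probes were lower in the male knockout, 7 were higher and 1 was level to 2 decimals. In the general knockout 14 were lower, 14 higher and 2 level, so the higher brightest probes there were not matched over all probes. In the female knockout 22 of the 30 were higher and 8 lower, and the median of the 10 genes was 0.03. These probe counts include several probes of the same gene, 8 of the 30 for Camk2d, and some probes near background. The shares over all kept probes were not computed, so the probe counts have no background beside them. Opposite signs in the 2 heart-specific pairs were found for 6 of the 10 genes, against 49.5% of all genes. Whether the sexes differ in the knockout effect could not be tested with 1 pair of each.

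The same 2 hearts differed in markers of muscle and of other cell types. Of the 9 ventricular markers, 8 had a lower signal in the male knockout than in the male wild type, with differences of -0.40 for the titin gene Ttn, -0.36 for Mybpc3, which encodes a thick-filament protein, and -0.39 for Tnni3, the cardiac troponin I gene. Their summed level was 284118 to 304202 in the knockouts and 270619 to 316949 in the wild types, and the 2 male hearts held the ends of these ranges, the knockout at 284118 and the wild type at 316949. Fibroblast markers summed to 21137 in the male knockout against 26680 in the male wild type, with 5 of 6 lower. Other sums were higher in the male knockout: endothelial markers at 10348 against 8707, although 4 of 6 were lower, smooth muscle markers at 27826 against 20791, with 4 of 5 lower, and macrophage markers at 5151 against 4268, with 3 of 7 lower. Dcn made up most of the fibroblast sum (17203 in the male knockout against 22021). Egfl7 made up most of the endothelial sum (7133 against 4812), and Acta2 most of the smooth muscle sum (24563 against 16946). Several ventricular probes, such as Tnnc1 (47404 against 46332), read near the brightest of the arrays, where a ceiling can compress differences. The part of these marker differences in the male values of the calcium genes was not tested.

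For most of the set the knockout differences stayed within the span of the wild-type hearts, as they did for most of all genes measured. These wild types also differed in line and sex, so the span is not one between like animals. In 8 of the 10 genes the male wild type had the highest wild-type signal, against 34.5% of all genes. The wild types spanned 0.91 for Jph2, 0.66 for Pln, 0.66 for Hrc, 0.57 for Ryr2 and 0.51 for Casq2 on the log2 scale. The largest difference in any pair was larger than the wild-type span for 3 of the 10 genes, against 37.1% of all genes. These were Cacna1c (0.55 against a span of 0.35), Cacnb2 (0.58 against 0.40) and Camk2d (0.49 against 0.36).

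The comparison of lines asked whether the heart-specific and the general knockout differ in their effect. By brightest probe Cacnb2 had the largest gap of the 10 genes, with a mean of -0.28 ± 0.22 (SD, n = 2 pairs) in the heart-specific line and a difference of 0.58 in the general pair, a gap of -0.85 (limma standard error 0.24, unadjusted p = 0.0103, adjusted p = 0.553). The gap rested on that probe: the mean of the 4 kept Cacnb2 probes gave -0.13 (limma adjusted p = 0.984), smaller in size than the gaps of Hrc (-0.36), Casq2 (0.21), Atp2a2 (-0.17) and Cacna1c (-0.17) taken the same way. With brightest probes Hrc followed with a gap of -0.36 (limma adjusted p = 0.863), Jph2 with -0.28 (0.941) and Camk2d had a gap of 0.12 (0.963). None of the 10 genes passed, against 9 of 11284 genes (0.0798%), and 1 of the 10 had an unadjusted p under 0.05 against 725 of all genes (6.43%). The median gap of the 10 genes was -0.22 and that of all genes -0.02. With 1 general pair the line, the animals and any processing of that pair cannot be told apart. The general pair left no residual in this fit, so the standard errors, p-values and calls do not measure the spread of that pair.

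Markers of other tissue moved with the general pair. Atrial markers had a summed level of 21612 in the general knockout against 44680 in its wild type, with 5 of the 8 measured members lower, and platelet markers of 1311 against 3824, with all 4 lower. Nppa made up most of the atrial sum in every heart, at 18997 in the general knockout against 39341 in its wild type. Gpr22, Stard10 and Upk3b were higher in the general knockout, by 0.18, 0.30 and 0.19. In the heart-specific line the atrial sum was higher in the knockout, at 25046 against 14974 in the female pair, with 7 of 8 higher, and at 27724 against 20460 in the male pair, with 4 of 8 higher. Of the 9 genes called between lines, 6 were such markers: the atrial myosin light chain genes Myl4 and Myl7, the red cell genes Alas2 and Slc4a1 and the platelet genes Ppbp and Tubb1. Sln, which encodes sarcolipin, the atrial relative of phospholamban, read 110 in the general knockout against 384 in its wild type, at least 3.13-fold lower because the knockout was at background. In the female pair it read 222 in the knockout against 105, at least 1.80-fold higher, and in the male pair it was at background in both hearts. The share of these tissues in the calcium gene values of the general pair was not tested.

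Between the sexes of the heart-specific line, Casq2 had the largest difference of the set. The 2 female hearts read 3247 and 3229 and the 2 male hearts 4744 and 4593, a difference of -0.53 female minus male (limma standard error 0.13, unadjusted p = 0.00471, adjusted p = 0.266). Ryr2 was also lower in both female hearts (10078 and 10283, against 11551 and 15312 in males; difference -0.39, limma adjusted p = 0.405), and Hrc was higher in both (16438 and 16639, against 13878 and 13517; 0.27, limma adjusted p = 0.487). The sexes did not overlap for these 3 of the 10 genes, against 42.7% of all genes, with 2 of the 10 higher in both males against 20.2%. None of the 10 passed, against 6 of 11284 genes (0.0532%), and 2 of the 10 had an unadjusted p under 0.05 against 1264 of all genes (11.2%). With 2 hearts of each sex, which also differ in genotype, sex cannot be told apart from the individual hearts.

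Other genes of calcium handling were taken from a list of 86, of which 63 were measured. Limma called 0 of the 63 over the 3 pairs, 0 in the heart-specific comparison, 0 between lines and 0 between sexes. In every knockout 4 of the 63 had a higher and 4 a lower signal, against 11.3% and 10.5% of all genes. Their median difference was -0.01, 0.06 and -0.08 for the general, female and male pair.

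Among the 8 other genes of surface calcium entry, 1 was lower in every pair and 0 were higher. Cacna1h, a T-type calcium channel gene, read 179 in the general knockout against 233, 158 in the female knockout against 196 and 257 in the male knockout against 314. The differences of -0.37, -0.31 and -0.29 were close together (mean -0.33 ± 0.04, SD, n = 3 pairs), but the hearts of different pairs overlapped, and it did not pass (limma unadjusted p = 0.0131, adjusted p = 0.9998). Rrad, which encodes a small GTPase that restrains the L-type channel and was singled out after its values were seen, had differences of -0.75, 0.70 and -0.92 in the general, female and male pair.

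Of the 9 genes of the store and its uptake, 1 was higher in every pair. This was S100a1, the gene of a calcium-binding protein that stimulates SERCA and the ryanodine receptor, at 20017 in the general knockout against 14292, 19735 in the female knockout against 18878 and 15921 in the male knockout against 12441. Its mean difference was 0.30 ± 0.22 (SD, n = 3 pairs; limma unadjusted p = 0.0369, adjusted p = 0.9998). Tmem38a, a potassium channel gene of the store membrane named after its values were seen, differed by 0.78, 0.00 and -0.37 in the general, female and male pair.

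Of the 18 kinases, phosphatases and regulators, 3 were higher in every pair and 1 lower. Camk2b, encoding another CaMKII form, differed by 0.18, 0.00 and 0.49, with a female difference above 0 only past the second decimal. Prkar2a, a regulatory subunit of protein kinase A, differed by 0.24, 0.16 and 0.10, and the calcineurin subunit gene Ppp3ca by 0.29, 0.01 and 0.04. Prkar2a was above background on only 4 arrays, and both of its female signals (121 and 108) were below it. Ppp1ca, a catalytic subunit of protein phosphatase 1, was lower in every pair, with differences of -0.06, -0.02 and -0.26 in the general, female and male pair. The remaining CaMKII genes, Camk2a (-0.09, 0.13 and -0.04) and Camk2g (-0.11, 0.36 and 0.09), were named after their values were seen and had mixed signs.

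In the smaller roles, 1 of 3 efflux genes was lower in every pair, the plasma membrane pump gene Atp2b4 (-0.21, -0.01 and -0.06), and 1 of 8 genes of IP3 and store-operated entry, the store sensor gene Stim2 (-0.03, -0.09 and -0.28). Atp2b4 was above background on only 3 arrays, and neither of its female signals (122 and 123) was. None of the 8 genes of the release complex, the 6 of the dyad and T-tubule and the 3 of the mitochondrial uniporter had the same sign in all 3 pairs.

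**Figure D4:**
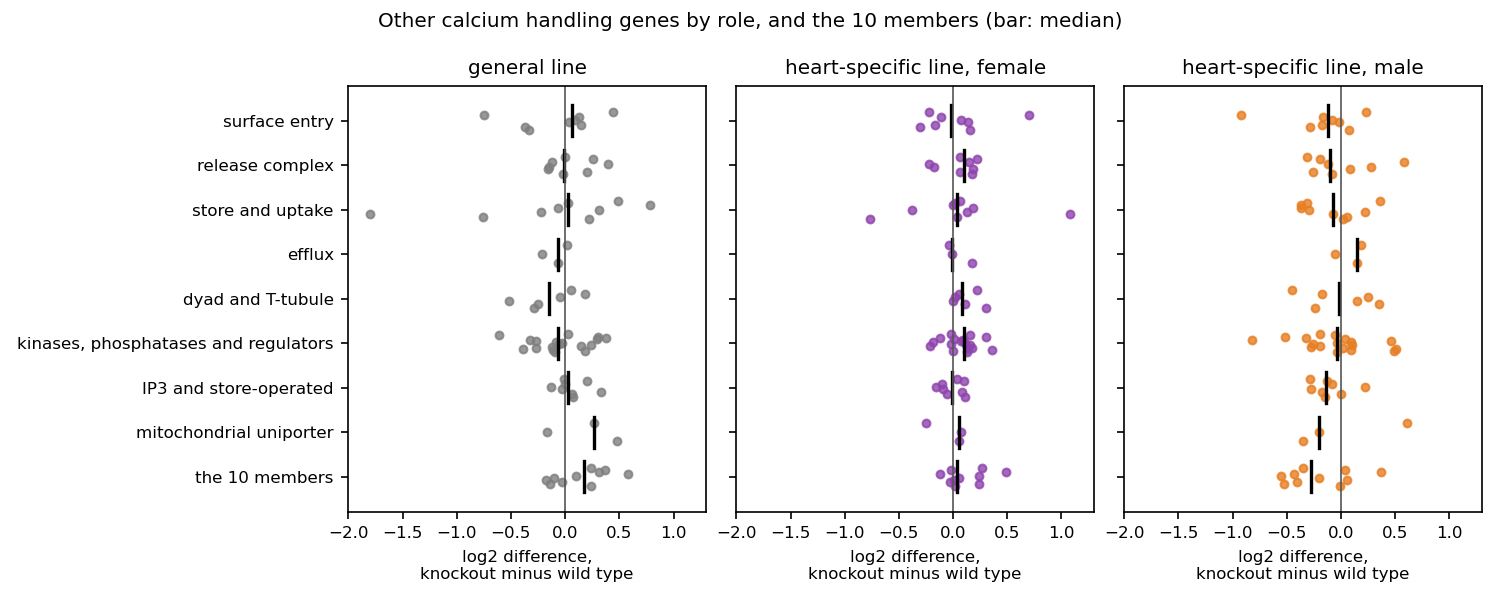
Log2 difference, knockout minus wild type, of 63 other calcium handling genes by role and of the 10 genes of the set, in the general, female and male pair (each point is a gene, black bars are medians). Medians lie near 0 in most roles, and that of the 10 genes is 0.17, 0.03 and -0.28 for the general, female and male pair.

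The skeletal muscle relatives of the set were dim. Ryr1, the skeletal ryanodine receptor gene, read 112 to 129 in the knockouts and 114 to 122 in the wild types, and Casq1, the skeletal calsequestrin gene, 119 to 150 and 109 to 143. Atp2a1, the skeletal SERCA gene, was above background in the female wild type (202, against 118 in the female knockout, at least 1.64-fold lower in the knockout) and in both general hearts (173 in the knockout against 148). Jph1, a junctophilin shared with skeletal muscle, was measured on all arrays and differed by -0.29, 0.30 and -0.24.

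The profiles of the 10 genes over the 6 arrays differed from one another. The closest pair within the set was Pln and Slc8a1, with a Pearson correlation of 0.95 over 6 arrays that share their pairs, while the closest member to Camk2d, Casq2, had 0.45. Outside the set, the gene most like Jph2, the member with the widest span (0.91), was Ttbk1 (0.998), and the gene most like Camk2d (span 0.73) was Borcs5 (0.992). With 6 arrays such likeness is common: 272 genes had a correlation over 0.9 with Jph2 and 44 with Camk2d. None of the 10 genes lies on the chromosome that carries Kdm4a.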

How the data were processed

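Expression was measured in 3 knockout and 3 wild-type adult mouse hearts, grouped and paired by their titles. The authors used GenomeStudio for the deposited intensities, per the submitters' processing notes, which name neither a version nor its options for background and normalization. The values are linear, from 82.5 to 50962, and the sorted columns differ by at most 2.32%, so they were taken as quantile-normalized with background left in, which compresses dim genes. A further table, whose 12 column names are numbers found in no label, was not used here. Array number, and not depth, limits precision.

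Probes were named from the platform annotation (34885 with 1 gene, 18 with several, 10378 with none), with symbols updated through GRCm38.p6 gene IDs (34807 matched). On each array 40.4% to 43.4% of 45281 probes lay above background. Log2 intensities were tested in R 4.3.3 with limma 3.58.1 and Benjamini-Hochberg adjustment over 11284 genes, 1 brightest kept probe each. The 3-pair fit included the pair as a blocking term (2 residual degrees of freedom, prior 5.30). Separate knockout terms gave the heart-specific effect and the gap between lines, and the sex fit used 4 arrays with genotype as a term (1 residual degree of freedom, prior 5.74). Deviations from genotype means correlated within each pair across genes (0.34, 0.33 and 0.35). Exact sign flips of 3 pairs cannot give p below 0.25. The genes, the lists and the rule for naming genes were chosen with earlier results of these data known. That rule takes the 10 genes throughout, other calcium genes past the test or with the same sign in all pairs, skeletal relatives and Sln, and for the widest members the gene most alike.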

Additional observations from a re-analysis of the deposited data

Results flagged for a closer look

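In 3 genes the female and the male knockout differed from their wild types in opposite directions by at least 0.2 on the log2 scale. The female and male values, by brightest probe, were 0.24 and -0.53 for Pln, 0.24 and -0.55 for Cacna1c, and 0.27 and -0.35 for Jph2. The dimmer kept probes of Cacna1c gave 0.32 and -0.15, and -0.04 and -0.10. Those of Jph2 gave 0.36 and 0.00, and -0.06 and -0.09, so not every probe shared the pattern. The difference between the sexes was not tested, because each sex had 1 pair.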

How the results depend on the processing

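No member passed limma in any setting tried. Apart from leaving out a pair, 342 values were unchanged in direction and side of the threshold, 8 reversed and 2 were counted as moved in size. Those 2 were of the general pair, which has no replicates to give a spread. Values counted as unchanged could still differ in size. Averaged over all kept probes, Camk2d went from 0.39 to 0.11 over 3 pairs and from 0.43 to 0.14 in the heart-specific comparison. The Cacnb2 gap between lines went from -0.85 to -0.13 in the same setting. With the mean of all kept probes, the difference over 3 pairs reversed for Slc8a1 (0.04), Cacna1c (0.01) and Cacnb2 (-0.07), the heart-specific one for Slc8a1 (0.01) and Jph2 (0.02), and the gap between lines (-0.10) and the general pair (0.10) for Slc8a1. The general pair became 0.02 for Cacnb2 and 0.04 for Camk2d. Atp2a2 over 3 pairs reversed with its next brightest probe (-0.10), a setting chosen after seeing the data. Camk2d over 3 pairs ranged from 0.11 to 0.47, with limma adjusted p from 0.976 to 0.9999, over 13 settings. Leaving out 1 pair at a time, the 3-pair difference ranged from -0.33 to 0.05 for Pln, -0.22 to 0.17 for Cacna1c, -0.28 to 0.23 for Cacnb2, -0.09 to 0.03 for Casq2 and -0.06 to 0.25 for Jph2. The heart-specific difference ranged from -0.53 to 0.24 for Pln, -0.20 to 0.05 for Slc8a1, -0.55 to 0.24 for Cacna1c, -0.02 to 0.04 for Hrc and -0.35 to 0.27 for Jph2. Over all genes limma called 1 in place of 0 in the heart-specific comparison with a normexp offset of 50, with the mean of kept probes, without a filter and with every probe on its own. Between lines it called 18, 23, 21 and 30 under these settings in place of 9, and 0 with probes above background on all 6 arrays. Between sexes it called 38 with the mean of probes, 21 with every probe and 2 with probes above background on all 6 arrays, in place of 6. Without the pair as a block it called 0 genes over 3 pairs (164 at an unadjusted p under 0.05) and 0 in the heart-specific line, so the pairing changed no call. The cause of these changes was not tested.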
